A study of Xenopus tropicalis with 20 samples.

Results

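The livers of first-generation (F1) daughters from a line whose founders met benzo[a]pyrene together with triclosan are set here against those of F1 control daughters. The members are the 5 libraries that the labels place in the F1 mixture group and the 5 of the F1 control group, 10 of the 20 libraries of the series. The animals are mature females of Xenopus tropicalis, the western clawed frog. In the mixture line the founding parents (F0) lived at 50 ng/L of the mixture between the tadpole stage and adulthood, and their F1 daughters received none. It is not stated whether 50 ng/L was the concentration of each compound or of both together. The control line carries no label beyond control. Its reads were first made public in another series, so that a batch of preparation or sequencing cannot be told apart from the group. RNA came from 15 mg of liver for each biological replicate and was sequenced as stranded mRNA libraries with reads of 75 bp. The labels name no parents or clutches, so sisters may be among the 5 females of a group. P-values then measure only the spread between single females, which the tests of genes pool over all 20 libraries.

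Benzo[a]pyrene is a polycyclic aromatic hydrocarbon that binds the aryl hydrocarbon receptor, a transcription factor whose best known target is the gene of cytochrome P450 1A1. Triclosan is an antibacterial agent that blocks bacterial fatty acid synthesis. The liver of a mature female frog stores and releases glucose, makes urea and bile acids, packs lipids into lipoproteins and secretes plasma proteins and vitellogenin, the yolk precursor. The comparison asked whether such functions differed between daughters according to what their parents had met.

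All values below are FPKM, the authors' measure of fragments relative to the length of the transcript and the depth of the library, divided by 1 scaling factor per library. Libraries are called by the number in their label, mixture 1, 4, 8, 9 and 13 and control 1, 2, 3, 4 and 6, and values are given in that order. The fragments implied by the deposited confidence limits ran from 13538277 to 16704801 in mixture libraries and from 7896246 to 12057469 in control libraries, with no overlap (exact permutation test, two-sided, p = 0.00794, the smallest that relabelling 5 against 5 allows). Mixture libraries had between 9321 and 10177 genes at an FPKM of 1 or more, and control libraries between 9762 and 10637 (exact permutation test, p = 0.214, smallest possible 0.00794). The 14 measured hepatocyte markers summed to between 9400 and 21800 scaled FPKM in mixture livers and between 5740 and 13700 in control livers. Albumin (alb) is not among them, as it lacked a sound value in mixture 4, 9 and 13 and in control 3. The single ovary marker that passed the filter was between 2.97 and 4.47 in mixture livers and between 2.67 and 4.10 in control livers. Of those under the filter, bmp15, dazl and figla were highest in mixture 4, mixture 8 and control 6, at 0.411 or less. Others, such as ddx4 and amh, did not follow these livers. The gene h1-8, on no marker list, stood at 4.64, 11.3 and 16.8 there and at 0.201 or less elsewhere. Ovary material in these livers was not tested. Red-cell markers other than the globin gene hba1 summed to 64000, 79200 and 50500 in mixture 4, 9 and 13, to 5820 and 8510 in mixture 1 and 8, and to between 6930 and 26700 in control livers. The gene hba1 had no sound value in mixture 4, 9 and 13 and was not tested. It stood at 19400 and 25500 in mixture 1 and 8 and between 11100 and 75000 in control livers, so these sums are partial. In bulk liver, fewer cells of a type and less RNA per cell cannot be told apart.

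A total of 3 libraries stood apart from the rest of their group, and for several genes that rest on them results are given with and without them. Control 3 is nearest the mixture group, and for several genes it is the one control liver that crosses, so that a p without it is chosen on the outcome. Such a p describes that setting and supports no call. By the median absolute log2 difference over 10201 genes, mixture 1 lay 0.422 from the other mixture libraries and 0.272 from the control libraries, and its nearest library was control 4. Mixture 8 lay 0.377 from its own group and 0.319 from the control group, and its nearest library was also control 4. Control 3 lay 0.387 from its own group and 0.296 from the mixture group, and its nearest library was mixture 13, at 0.221 the closest pair between the groups. Pairs within the mixture group had a median distance of 0.377, pairs between the groups 0.347 and pairs within the control group 0.303. The median SD of a gene on the log2 scale was 0.329 in the mixture group and 0.294 in the control group.

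No gene passed limma's test after Benjamini-Hochberg adjustment, 0 of 10228, while 1306 (12.8%) had an unadjusted p under 0.05, 567 higher (5.54%) and 739 lower (7.23%) in mixture livers. The count of called genes was 24 without mixture 8, 21 without control 3, 6 without mixture 1 and 1 without control 4 or control 6. With libraries weighted by limma's arrayWeights, which gave mixture 1, mixture 8 and control 3 the lowest weights of the 10 (0.434, 0.533 and 0.555), it was 1279. Genes were therefore read one by one, by whether all 5 mixture livers lay on one side of all 5 control livers. This held for 163 of 10201 genes with a value in all 10 libraries (1.60%), of which 70 were higher (0.686%) and 93 lower (0.912%) in mixture livers. Their adjusted p was 0.0655 or more. Without control 3 the groups did not overlap for 596 genes (5.84%), 433 of them added, and without mixture 1 for 483 (4.73%), 320 of them added. Without mixture 8 it was 324, without mixture 4 278, without control 6 254 and without control 1 247. Leaving out a library can only keep or add such genes, and all 163 stayed each time. Separation by relabelling is also likelier with fewer livers, so these counts do not test the 163. Scaling to the summed FPKM in place of the median ratio moved the median log2 fold change of all genes to -0.44, against -0.02 here, and left 3 genes higher and 110 lower. Directions below are relative to the median of all genes.

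Ranks by p below cover genes with their own symbol, not LOC or clone identifiers. Among those higher in every mixture liver, the smallest p-values belonged to epha2, emilin1, ippk, prcp and mtfmt, in that order. The gene of the receptor tyrosine kinase EphA2, epha2 (chromosome 7, 131376390 to 131412012), stood at 12.1, 7.28, 18.4, 8.93 and 7.75 scaled FPKM in mixture livers and at 3.65, 2.61, 2.53, 1.80 and 4.76 in control livers. The lowest mixture liver was above the highest control liver, and mixture 8 was the highest of all (log2 fold change 1.52 ± 0.27, SE, adjusted p = 0.0655). The gene emilin1 (chromosome 5, 161482452 to 161501599), of a glycoprotein of elastic fibres, stood at 8.19, 8.26, 5.60, 5.45 and 8.34 in mixture livers and at 1.97, 1.65, 4.28, 1.55 and 1.37 in control livers. Only control 3 came near the mixture values (1.42 ± 0.26, adjusted p = 0.0655). Without control 3 the adjusted p was 0.0439 for epha2 and 0.0124 for emilin1, and without mixture 8 it was 0.0432 and 0.0362. With any other F1 library left out neither was called, and the adjusted p over all alternatives ran between 0.0127 and 0.299 for epha2 and between 0.00758 and 0.376 for emilin1.

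Of the lysosomal genes, prcp, of a carboxypeptidase that cleaves peptides after proline, stood at 6.53, 6.91, 7.73, 7.69 and 6.43 scaled FPKM in mixture livers and at 3.2, 2.27, 5.21, 2.28 and 2.24 in control livers. Its mixture values spanned a narrow range and control 3 was the control liver closest to them (1.04 ± 0.21, adjusted p = 0.0944, and 0.0233 without control 3, with between 0.00758 and 0.478 over all alternatives). The gene naglu, of an enzyme of heparan sulfate breakdown, was between 5.25 and 8.57 in mixture livers and between 2.86 and 5.17 in control livers, which touch closely (0.57 ± 0.15). Of the mitochondrial genes, mtfmt, whose enzyme formylates the initiator methionyl-tRNA, stood at 3.5, 2.25, 9.8, 2.42 and 1.5 in mixture livers and between 0.560 and 1.14 in control livers. Mixture 8 was far above the other mixture livers there (1.22 ± 0.26, adjusted p = 0.111), and without it the log2 fold change was 0.88 and the adjusted p 0.0390, with between 0.0198 and 0.329 over all alternatives. The mitochondrial thioredoxin gene txn2 was between 12.8 and 17.6 in mixture livers and between 7.88 and 12.1 in control livers (0.65 ± 0.15).

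The rest of the 15 genes of smallest p with their own symbol that were higher without overlap came from several pathways. Among them were ippk, of the kinase that makes inositol hexakisphosphate (0.67 ± 0.13), the sulfotransferase gene sult6b1.4 (0.72 ± 0.16), aoc1, of the diamine oxidase (1.06 ± 0.27), and emd, of the nuclear membrane protein emerin (0.51 ± 0.13). A sulfurtransferase-like gene, tstd1, had a log2 fold change of 0.90 ± 0.25. Spans of ippk and cenpp overlap by 162 bases, where reads of the 2 genes can be split. The proton channel gene otop2 stood at 10.4, 6.81, 9.86, 11.7 and 16.6 scaled FPKM in mixture livers and at 4.96, 0, 0, 0 and 4.60 in control livers. Its span overlaps another gene's by 560 bases, and the authors' deposited table gives group means of 57.9 FPKM for mixture and 66.5 for control, the opposite order. The zeros of otop2 are therefore given as listed, and its difference depends on which of the authors' estimates is taken.

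**Figure D1:**
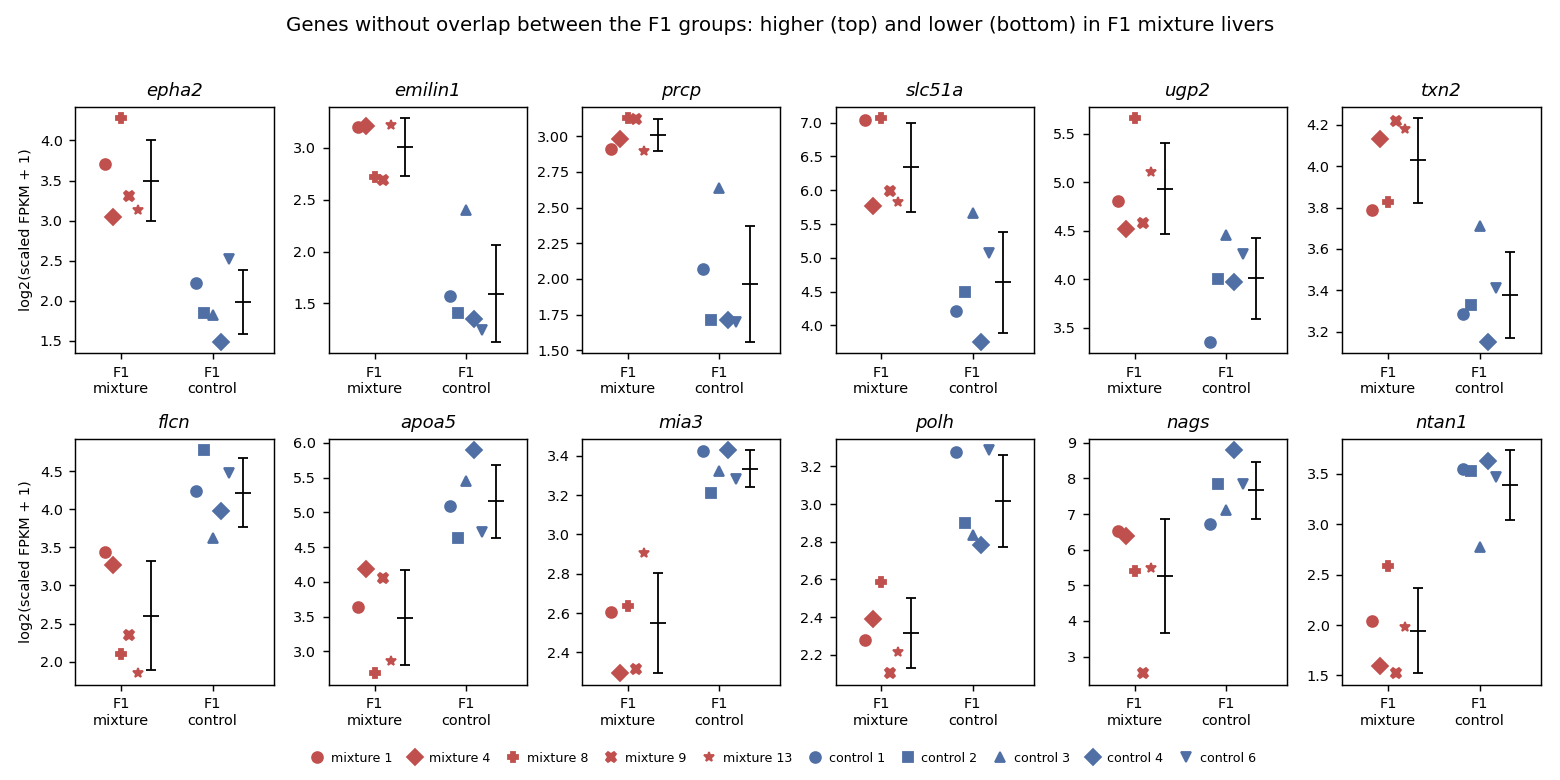
Scaled FPKM of 12 genes whose F1 groups do not overlap, on the log2(scaled FPKM + 1) scale, 1 symbol per liver with F1 mixture livers left and F1 control livers right, and mean ± SD (n = 5) beside each group. In the top row every mixture liver lies above every control liver and in the bottom row below, with control 3 the control liver closest to the mixture group for emilin1, prcp, slc51a, ugp2, txn2, flcn and ntan1.

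Among genes with their own symbol lower in every mixture liver, the smallest p-values belonged to flcn, apoa5, ccpg1, ctc1 and ddhd2, in that order. Folliculin, with its partners FNIP1 and FNIP2, acts on the Rag GTPases that report amino acids to the kinase mTORC1 at the lysosome. The folliculin gene flcn (chromosome 9, 15783695 to 15791567) stood at 9.88, 8.65, 3.27, 4.11 and 2.59 scaled FPKM in mixture livers and at 17.9, 26.5, 11.3, 14.7 and 21.3 in control livers. Mixture 1 and 4 were the highest of their group and control 3 the lowest of its own (-1.62 ± 0.31, adjusted p = 0.0798). Its adjusted p was 0.0243 without control 3 and 0.0368 without mixture 1, with between 0.00758 and 0.695 over all alternatives. The partner gene fnip1 stood at 4.71, 6.77, 3.38, 3.32 and 2.42 in mixture livers and at 12.4, 15.8, 3.36, 14.9 and 12.6 in control livers. Here control 3 lay inside the mixture range and the other 4 control livers above it (-1.24 ± 0.31, adjusted p = 0.162), and without control 3 the log2 fold change was -1.60 with an adjusted p of 0.0124, with up to 0.997 over all alternatives. The other partner, fnip2, stood at 8.86, 9.25, 10.7, 6.77 and 3.53 in mixture livers and at 14.5, 25.8, 9.02, 14.9 and 21.1 in control livers (-1.03 ± 0.31). Again control 3 was the only control liver among the mixture values, and without it the log2 fold change was -1.22 and the adjusted p 0.0765. The gene gpnmb, of a lysosomal and melanosomal glycoprotein and chosen after its values were seen, was between 1.49 and 7.62 in mixture livers and between 3.35 and 16.0 in control livers (-1.0 ± 0.37). Pigment cells or melanomacrophages may hold such transcripts, and gpnmb is itself among their 2 measured markers. These markers summed to between 2.30 and 9.64 in mixture livers and between 5.66 and 18.2 in control livers. The sums are therefore no separate measure of these cells, whose part in the gpnmb values was not tested. In the list of nutrient sensing and lysosome genes, 21 of 43 measured members were higher, 22 lower and 0 called. Without overlap was 1 of the 43 (flcn), beside 1.60% of all genes. The median log2 fold change of the list was -0.03, beside -0.02 over all genes. An unadjusted limma p under 0.05 was found for 6 of the 43, flcn, fnip1, fnip2 and gusb among them, all lower. Over all genes the share was 12.8%, and 7.23% for lower genes alone.

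Single genes of triglyceride handling and of the export of large cargo were among those lower. The gene apoa5, of an apolipoprotein that controls plasma triglycerides (chromosome 7, 82275954 to 82292951), stood at 11.5, 17.2, 5.41, 15.7 and 6.25 scaled FPKM in mixture livers and at 33.0, 23.9, 42.8, 58.8 and 25.2 in control livers. All control livers, control 3 included, were well above the mixture range (-1.67 ± 0.35, adjusted p = 0.111, and 0.0468 without scaling, with between 0.0151 and 0.371 over all alternatives). Of the transport proteins that load large cargo at exit sites of the endoplasmic reticulum, mia3 stood at 5.09, 3.90, 5.22, 3.98 and 6.49 in mixture livers and at 9.73, 8.27, 9.01, 9.78 and 8.72 in control livers (-0.78 ± 0.18). Its relative mia2, chosen after its values were seen, was between 10.2 and 14.7 in mixture livers and between 17.5 and 36.6 in control livers, again without overlap (-0.81 ± 0.25). The acyl-CoA synthetase gene acsl1 was between 49.9 and 110 in mixture livers and between 112 and 176 in control livers (-0.81 ± 0.38), a gap far smaller than the spread within either group. The lipase gene ddhd2 stood at 4.87, 4.06, 4.76, 1.90 and 2.80 in mixture livers and at 5.65, 18.0, 6.57, 8.92 and 14.2 in control livers (-1.25 ± 0.28). The gene acacb, of the acetyl-CoA carboxylase that restrains fatty acid oxidation, was between 4.47 and 8.68 in mixture livers and between 7.69 and 14.2 in control livers, with control 3 lowest of its group (-0.78 ± 0.22). Of 28 measured genes of the apolipoprotein list 16 were higher and 12 lower with 0 called, and apoc1, of a small lipoprotein component, was between 7270 and 17500 in mixture livers and between 4380 and 7270 in control livers (1.18 ± 0.38). Of 25 genes of fatty acid synthesis 10 were higher and 15 lower with 0 called.

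Of the genes of the DNA damage response list, polh alone was lower in every mixture liver. A few genes outside that list that also act on DNA are given with it. The gene polh, of the polymerase that copies past ultraviolet and bulky lesions, stood at 3.86, 4.25, 5.0, 3.29 and 3.64 scaled FPKM in mixture livers and at 8.69, 6.46, 6.15, 5.88 and 8.77 in control livers (-0.70 ± 0.16). The gene tp53bp1, of a protein of double-strand break repair, was between 1.09 and 2.86 in mixture livers and between 2.93 and 3.84 in control livers (-0.70 ± 0.17). The glycosylase gene neil1, chosen after its values were seen, was between 3.73 and 4.75 in mixture livers and between 5.60 and 7.13 in control livers (-0.44 ± 0.13). The telomere gene ctc1 was between 8.39 and 9.08 in 4 mixture livers and at 13.1 in mixture 13, and between 13.9 and 22.7 in control livers (-0.82 ± 0.18). The damage sensor gene xpc was between 4.18 and 9.04 in mixture livers and between 7.05 and 12.6 in control livers, with overlap (-0.71 ± 0.21). In the list of DNA damage response and repair, 13 of 27 measured members were higher and 14 lower and 0 were called. Its median log2 fold change was -0.04, and 1 of the 27 (polh) was without overlap, beside 1.60% of all genes.

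The rest of the 15 genes of smallest p with their own symbol that were lower without overlap included ccpg1 (-0.85 ± 0.18). Its protein is a receptor for the autophagy of endoplasmic reticulum. Also among the 15 were pbk, a kinase of dividing cells (-0.59 ± 0.14), and pigx, of glycolipid anchor synthesis (-0.61 ± 0.15). Further ones were pdcd4, an inhibitor of translation (-0.72 ± 0.18), map3k10, a kinase of stress signalling (-0.66 ± 0.17), and serhl2, a serine hydrolase-like gene (-0.76 ± 0.19). The gene lgals3, of the lectin galectin-3, was between 0.974 and 1.89 scaled FPKM in mixture livers and between 2.57 and 5.96 in control livers (-1.07 ± 0.27). The amidase gene ntan1 stood at 3.12, 2.02, 5.01, 1.87 and 2.95 in mixture livers and at 10.7, 10.5, 5.84, 11.4 and 10.1 in control livers (-1.44 ± 0.37). Control 3 was near mixture 8 there, and the other 4 control livers were at least 10.1. Without control 3 the log2 fold change was -1.60 and the adjusted p 0.0742.

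Genes of sugar handling went in different directions. Ketohexokinase carries out the first step of fructose breakdown, and the glucose 6-phosphatases release glucose. The ketohexokinase gene khk, chosen after its values were seen, stood at 14.9, 9.30, 28.9, 17.3 and 11.3 scaled FPKM in mixture livers and at 69.2, 57.8, 21.1, 49.4 and 52.8 in control livers. Only control 3 lay in the mixture range (-1.56 ± 0.39, adjusted p = 0.161, and -1.84 with adjusted p = 0.0440 without it, with up to 0.371 over all alternatives). On chromosome 5 khk starts 2737 bases past the end of emilin1, and its span overlaps that of cgref1 by 698 bases. The gene cgref1 was between 5.75 and 18.2 in mixture livers and stood at 9.75, 0, 17.0, 0 and 0 in control livers. Its zeros are given as listed and are not read as absence.

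The gene of UDP-glucose pyrophosphorylase, ugp2, which makes the glucose donor for glycogen, stood at 27.0, 21.9, 49.6, 23.0 and 33.4 in mixture livers and at 9.23, 15.1, 20.9, 14.7 and 18.2 in control livers (0.93 ± 0.23, adjusted p = 0.162). In contrast g6pc.1, of a glucose 6-phosphatase, stood at 38.3, 27.0, 3.26, 42.0 and 30.1 in mixture livers and at 23.2, 161, 358, 403 and 222 in control livers. Control 1 lay inside the mixture range, while the other 4 control livers were at least 161 (-2.86 ± 0.87, adjusted p = 0.238). Reads can be split between g6pc.1 and its copies, of which g6pc.3 was between 5.32 and 30.6 in mixture livers and stood at 4.57, 13.8, 360, 167 and 161 in control livers. Of 20 measured genes of glucose release 9 were higher and 11 lower (median -0.02), and of 26 of glycolysis and glycogen 13 were higher and 13 lower (median 0.01), with 0 called in either. The gluconeogenic gene pck1 was at 0.226 or less in all 10 livers.

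Single genes of nitrogen disposal were lower in mixture livers, nags without overlap. N-acetylglutamate synthase makes the activator of the first step of the urea cycle, and its gene nags (chromosome 10, 18019106 to 18027387) stood at 91.1, 82.3, 41.0, 4.76 and 43.7 scaled FPKM in mixture livers and at 104, 228, 138, 446 and 229 in control livers. Mixture 9 was far below the rest, and mixture 1 and control 1 nearly met (-2.40 ± 0.63, adjusted p = 0.185). The argininosuccinate lyase gene asl stood at 45.5, 31.7, 29.3, 15.3 and 19.0 in mixture livers and at 56.9, 117, 43.9, 58.5 and 64.4 in control livers. Mixture 1 and control 3 crossed by a small margin (-1.26 ± 0.34, adjusted p = 0.196). The gene uroc1, of histidine breakdown, was between 35.7 and 222 in mixture livers and between 120 and 508 in control livers, and ass1, of the step before asl, was between 188 and 2030 and between 666 and 2450. Of 37 measured genes of the urea cycle and amino acid breakdown 18 were higher, 19 lower and 0 called, with a median log2 fold change of -0.01. Without overlap was 1 of the 37 (nags), beside 1.60% of all genes.

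Both subunit genes of the bile acid exporter OST were higher. This transporter moves bile acids and steroids out across the basal cell membrane and works only as the pair of SLC51A and SLC51B. The gene slc51a (chromosome 5, 102853991 to 102874763) stood at 131, 53.4, 133, 62.3 and 56.0 scaled FPKM in mixture livers and at 17.5, 21.6, 49.7, 12.5 and 32.6 in control livers. Mixture 1 and 8 were the highest and control 3 came near the others (1.70 ± 0.47, adjusted p = 0.199, and 1.95 with adjusted p = 0.0742 without control 3). The gene slc51b, on chromosome 3, stood at 38.5, 22.6, 116, 52.6 and 27.6 in mixture livers and at 3.84, 9.49, 24.5, 2.99 and 7.59 in control livers. Control 3 alone reached the mixture range (2.38 ± 0.54, adjusted p = 0.117), and without it the log2 fold change was 2.77 and the adjusted p 0.0296, with up to 0.311 over all alternatives. The span of slc51b overlaps that of rasl12 by 1057 bases. The gene akr1d1, of the reductase that sets the ring shape of bile acids, stood at 50.3, 52.7, 44.6, 49.6 and 31.5 in mixture livers and at 6.15, 13.6, 29.3, 4.11 and 35.4 in control livers (1.69 ± 0.65). The gene of the bile acid receptor FXR, nr1h4, was between 9.73 and 13.6 in mixture livers and between 12.6 and 22.6 in control livers. Of 15 measured genes of bile acid synthesis and export 6 were higher, 9 lower and 0 called, and the median was -0.13. Without overlap was 1 of the 15 (slc51a), beside 1.60% of all genes.

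**Figure D2:**
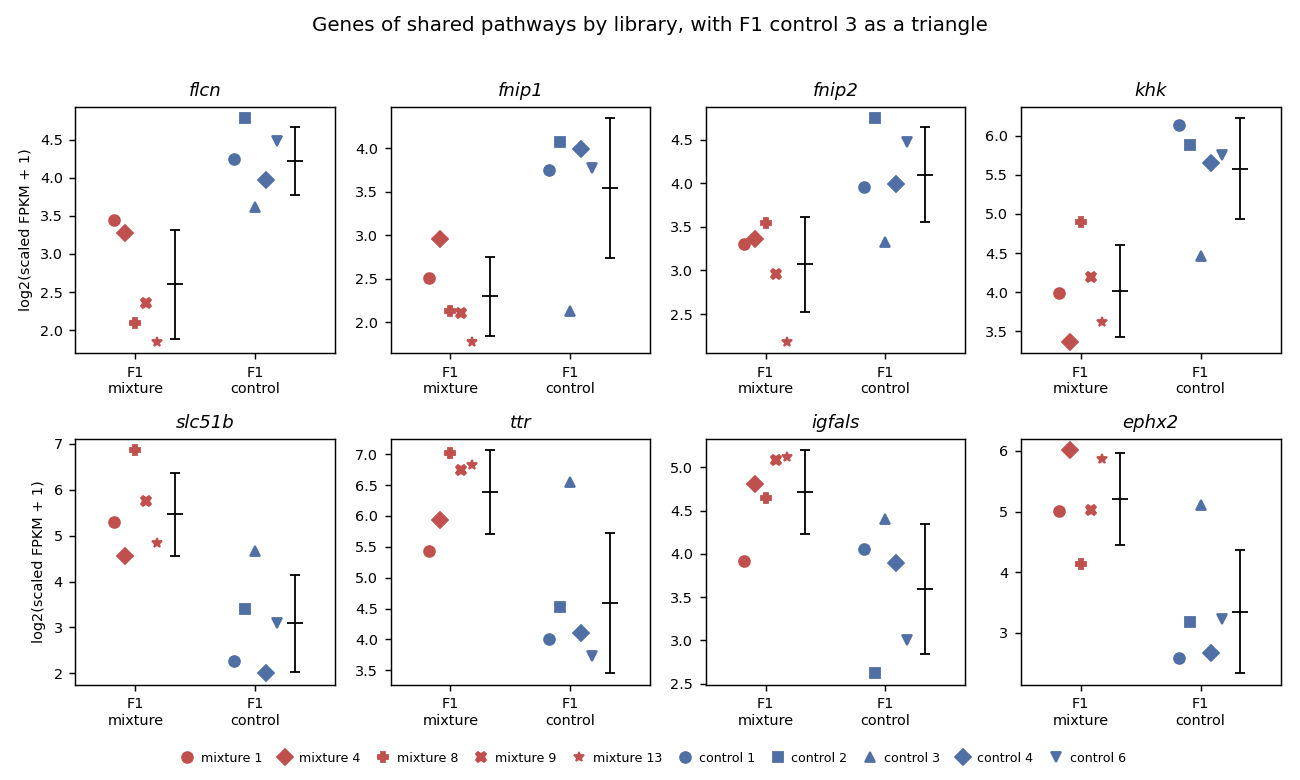
Levels of 8 genes by liver, on the log2(scaled FPKM + 1) scale, with F1 mixture livers left, F1 control livers right and mean ± SD (n = 5) beside each group. The triangle, control 3, lies within the range of the mixture livers for fnip1, fnip2, khk, slc51b, ttr, igfals and ephx2, and for flcn it is the lowest control liver.

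The genes that benzo[a]pyrene itself is known to act on overlapped between the groups. The cytochrome gene cyp1a1 stood at 88.9, 60.8, 63.3, 87.7 and 50.5 scaled FPKM in mixture livers and at 55.2, 59.4, 73.3, 79.3 and 49.2 in control livers, with the ranges lying over each other (0.14 ± 0.33, adjusted p = 0.880). The receptor gene ahr was between 0.775 and 1.74 in mixture livers and between 0.814 and 1.14 in control livers (0.16 ± 0.17). The gene nfe2l2, of the NRF2 regulator of oxidant defence, was between 10.8 and 19.9 in mixture livers and between 8.95 and 11.4 in control livers (0.37 ± 0.16). Of 10 measured genes of the receptor and its targets 6 were higher and 4 lower with 0 called. In the list of other enzymes of foreign compounds, 20 of 30 measured members were higher, 10 lower and 0 called. Its member ephx2 is an epoxide hydrolase gene. It stood at 31.3, 63.9, 16.6, 31.6 and 57.4 in mixture livers and at 4.97, 8.0, 33.4, 5.36 and 8.37 in control livers. Control 3 was at the level of the mixture livers there (1.86 ± 0.52, adjusted p = 0.200, and 2.3 with adjusted p = 0.0511 without control 3).

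Of single genes of secreted hormone carriers, which form no list of their own here and were not called, shbg alone was without overlap. The gene shbg, of the sex steroid carrier, was between 40.0 and 50.3 scaled FPKM in mixture livers and at most 35.6 in control livers, without overlap (0.72 ± 0.26, adjusted p = 0.32). The transthyretin gene ttr, of a thyroid hormone carrier, stood at 42.0, 60.1, 129, 106 and 113 in mixture livers and at 15.1, 22.0, 92.5, 16.1 and 12.3 in control livers (1.81 ± 0.66). The gene igfals, of the protein that holds insulin-like growth factors in the blood, was between 14.1 and 33.9 in mixture livers and between 5.13 and 20.2 in control livers (1.12 ± 0.34). For ttr and igfals control 3 was the highest control liver, and without it the log2 fold changes were 2.3 (adjusted p = 0.0922) and 1.33 (adjusted p = 0.0769). The growth factor gene igf1 itself was between 0.653 and 2.39 in mixture livers and between 0.984 and 1.67 in control livers (-0.01 ± 0.39). The estrogen receptor gene esr1 was between 1.71 and 3.88 in mixture livers and between 2.89 and 5.59 in control livers (-0.56 ± 0.31). It was the 1 lower gene of the 7 measured in the vitellogenin and estrogen list, of which 6 were higher and 0 called. Those 7 include shbg and ttr, given above, and rbp4, so the count is no separate measure of an estrogen response. The vitellogenin gene vtga2 had a sound value in 1 of these 10 libraries and is not compared.

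Several larger lists lay mostly on the higher side, with 0 genes called, while single livers of both groups differed widely. Of the cytosolic ribosomal protein genes 75 of 75 measured lay on the higher side (median log2 fold change 0.69, 0 called), yet the mean level of the list relative to the 10 libraries was -0.35 in mixture 1 and -0.61 in mixture 8, and 0.61 in control 3. The list was high in mixture 4, 9 and 13 (0.94, 0.57 and 1.19) and low in control 2, 4 and 6 (-1.14, -0.61 and -0.73). Of the 72 genes of the respiratory chain and ATP synthase 70 were higher, 27 with an unadjusted p under 0.05 (median 0.57), with the list high in mixture 13 (0.78) and control 3 (0.54) and low in mixture 1 (-0.31) and control 2 (-0.91). Of 48 genes of entry into the endoplasmic reticulum and secretion 44 were higher, 10 with an unadjusted p under 0.05 (median 0.46), and mixture 13 and control 3 were highest, at 0.95 and 0.66. Coagulation and plasma protein genes (35 of 42 higher, 0 called), among them serpinc1, of antithrombin (1.2 ± 0.35), were highest in mixture 9, at 0.61, and lowest in control 6, at -0.55. Of 25 complement genes 25 were higher, 3 with an unadjusted p under 0.05 (median 0.48), and the list was highest in mixture 9 and 8 (0.83 and 0.61) and lowest in control 4 and 1 (-0.75 and -0.64). Over all genes 5.54% were higher with an unadjusted limma p under 0.05. After quantile normalization the medians relative to all genes were 0.12 for ribosomal proteins and 0.14 for plasma proteins, against 0.71 and 0.48 here. They were 0.44 for the respiratory chain, 0.45 for entry into the endoplasmic reticulum and 0.36 for complement, against 0.59, 0.48 and 0.50 here.

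The first principal component of the 10 libraries held 37.2% of the variance, and its order of the libraries was not that of every list above. Mixture 13, 9 and 4 scored 45.8, 37.8 and 24.0 and control 3 scored 23.5, while mixture 8 and 1 scored -8.8 and -21.3 and control 1, 4, 6 and 2 scored -7.6, -21.4, -34.6 and -37.4. Of the 200 genes with the strongest weight at its positive end 43 were ribosomal protein genes, and 8 were of the 18 measured red-cell markers. Mixture 4, 9 and 13 were also the 3 livers with the highest sums of red-cell markers, which leave out the globin gene hba1. That gene had no sound value in these 3 livers, and albumin (alb) had none in these 3 and in control 3. The red-cell gene hba2 stood at 16.4, 116, 22.2, 106 and 223 scaled FPKM in mixture livers and at 40.5, 2.56, 40.6, 25.3 and 9.89 in control livers (1.87 ± 0.74). The part of red cells in the list values was not tested.

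**Figure D3:**
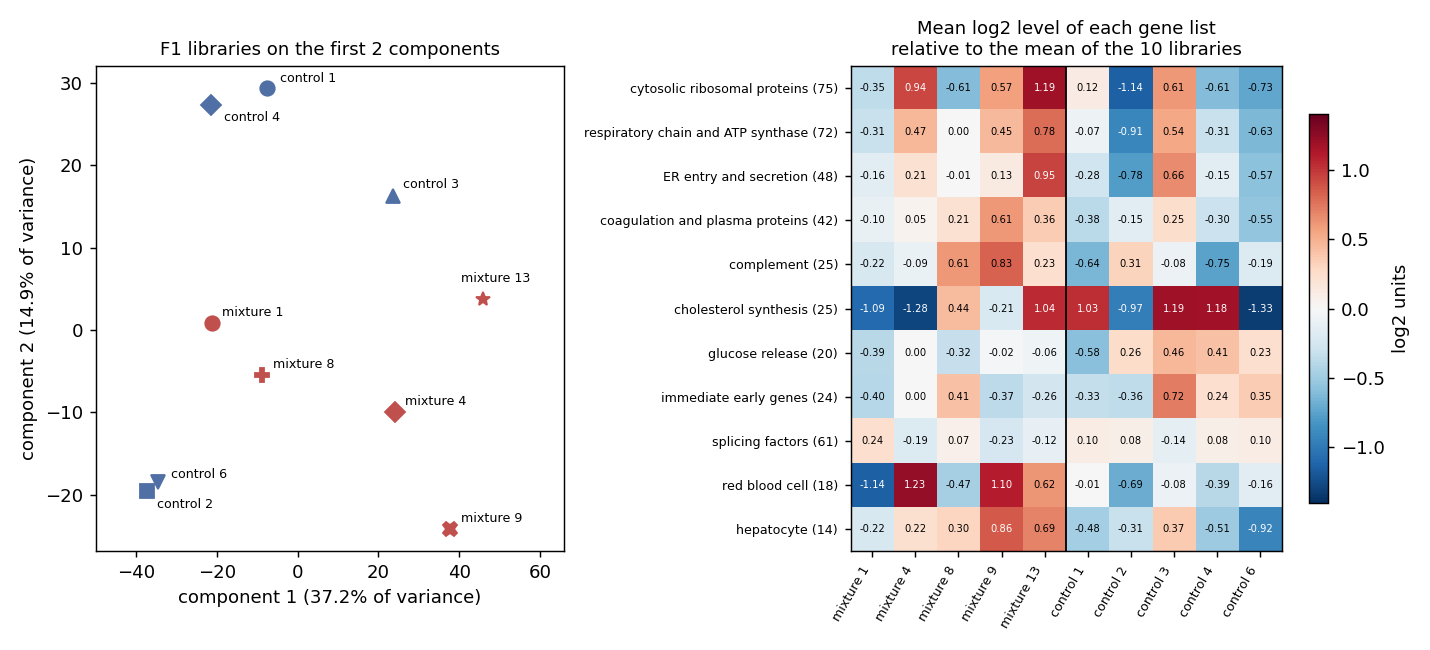
Left, scores of the 10 F1 libraries on the first and second principal components of log2(scaled FPKM + 1) over 10201 genes, with F1 mixture in red and F1 control in blue; right, the mean log2 level of 11 gene lists (number of measured genes in brackets) in each library relative to the mean of the 10 libraries, F1 mixture libraries left of the line. Control 3 lies on the side of mixture 4, 9 and 13 on component 1, mixture 1 and 8 on the side of the other controls, and cholesterol synthesis splits both groups.

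Genes of cholesterol synthesis split both groups. The list had 23 of 25 measured members with a negative log2 fold change (median -0.51, 0 called), but its level was high in mixture 13 (1.04) and in control 1, 3 and 4 (1.03, 1.19 and 1.18). It was low in mixture 1 and 4 (-1.09 and -1.28) and in control 2 and 6 (-0.97 and -1.33). The gene msmo1, of an oxidase late in the pathway, stood at 0.334, 0.254, 23.0, 4.54 and 40.6 scaled FPKM in mixture livers and at 42.9, 0.467, 65.1, 86.2 and 0.289 in control livers. The lanosterol demethylase gene cyp51a1 stood at 0.699, 0.808, 24.4, 7.82 and 53.0 in mixture livers and at 71.6, 1.01, 83.2, 87.1 and 0.671 in control livers. Both genes were therefore near 0 in mixture 1 and 4 and control 2 and 6. These 4 livers were also the only ones of the 10 in which frmd8, of a membrane-bound FERM protein, was high. It stood at 104, 143, 6.36, 4.36 and 5.54 in mixture livers and at 5.32, 256, 5.98, 6.65 and 393 in control livers, with no value between 6.65 and 104.

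Other genes with a large spread within a group at a mean level of 10 or more were high or low in single livers, and immediate early genes and per1 are given beside them. The ficolin gene fcn1, of a lectin that starts complement, stood at 107, 15.3, 1870, 302 and 21.1 scaled FPKM in mixture livers and at 5.08, 111, 17.8, 13.9 and 223 in control livers. The gene mfap4.2, of a microfibril-associated protein, stood at 161, 118, 5390, 2610 and 505 in mixture livers and at 79.2, 937, 20.5, 45.9 and 1250 in control livers, so that both genes were highest in mixture 8 and 9 among mixture livers and in control 2 and 6 among control livers, with fcn1 in mixture 1 close to control 2. The gene btbd17 stood at 297, 39.6, 2.08, 0.400 and 180 in mixture livers and at 864, 24.2, 43.6, 499 and 19.0 in control livers. The gene ghrh, of growth hormone-releasing hormone, was at 37.5 in mixture 8 and at 1.74 or less in the other mixture livers, and at 24.2 and 69.3 in control 3 and 4 and at 2.47 or less in the other control livers. Of genes that respond within minutes to stimuli, dusp1, a phosphatase, stood at 12.7, 21.4, 42.5, 14.8 and 17.6 in mixture livers and at 16.6, 21.2, 392, 61.8 and 105 in control livers. The early genes fos and egr1 were highest in mixture 8, at 4.69 and 14.2, between 0.226 and 1.83 for fos and between 1.41 and 2.43 for egr1 in the other mixture livers, and at most 3.11 and 4.46 in control livers. The clock gene per1 was between 10.3 and 29.0 in mixture livers and between 19.4 and 31.1 in control livers. The gene gadd45g was at 195 in mixture 8 and between 13.9 and 14.8 in the other mixture livers, and between 26.1 and 143 in control livers. The gene hamp2, a relative of the iron hormone hepcidin, stood at 9.42, 148, 298, 5.61 and 21.9 in mixture livers and at 55.5, 73.7, 282, 30.7 and 61.5 in control livers. The gene ptgds, of prostaglandin D2 synthase, was between 215 and 1030 in mixture livers and stood at 22.2, 15.4, 709, 305 and 253 in control livers. The myosin gene myo3b was at 0.280 in mixture 13 and at 18.7 or more in each other liver. Mixture 8 also held amy2a, a pancreatic amylase, at 1830 against between 106 and 278 in the other mixture livers and between 129 and 415 in control livers. It was the 1 measured gene of the 16 on the gut and pancreas marker list. Of those under the filter, cpa1 was at 0.360 and cela2a at 0.0253 in mixture 8. There prss1, prss2, ctrb1, cpb1 and pnlip were listed at 0. Pancreas material in this liver was not tested.

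**Figure D4:**
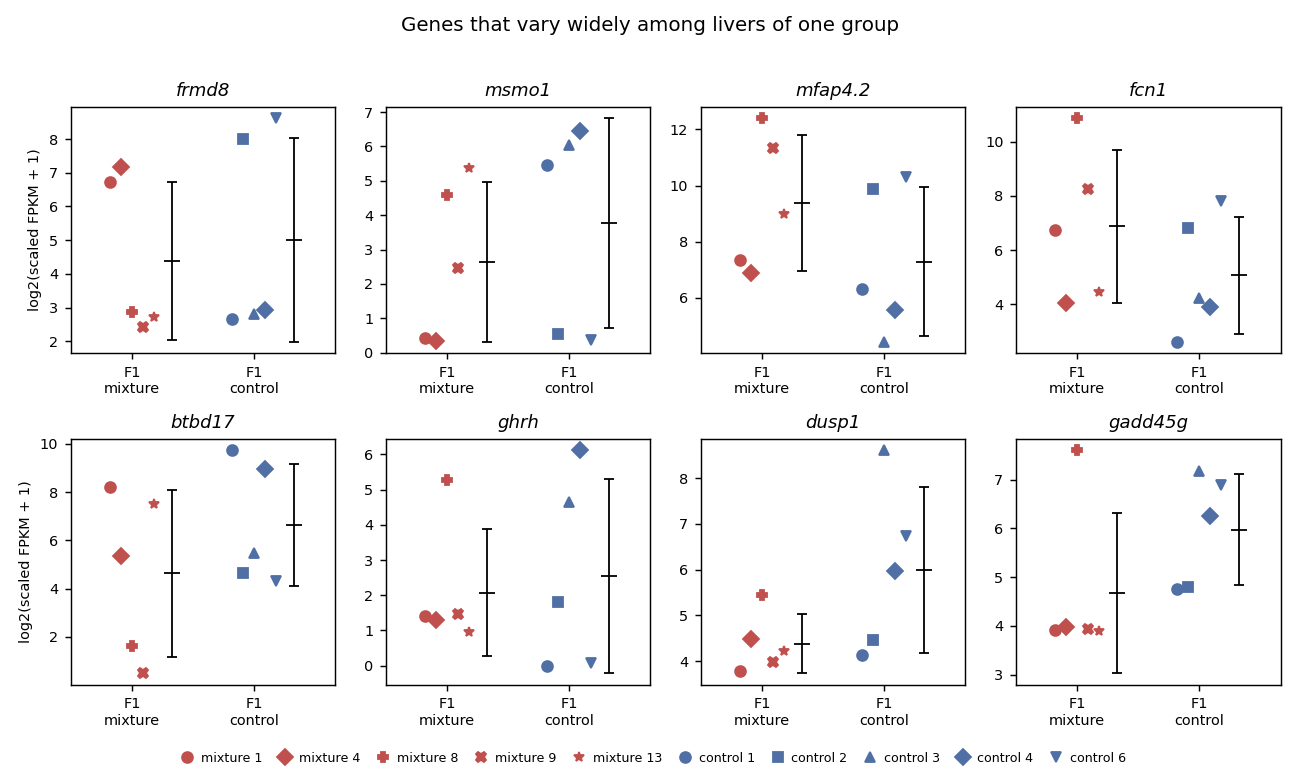
Levels of 8 genes by liver on the log2(scaled FPKM + 1) scale, F1 mixture livers left and F1 control livers right, with mean ± SD (n = 5) beside each group. Livers of both groups fall into high and low sets for frmd8 and msmo1, and the 4 livers high for frmd8 (mixture 1 and 4, control 2 and 6) are the 4 low for msmo1.

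The test of spread asked which genes varied more from liver to liver in one group. Of 10228 genes it called 2 (0.0196%), hps3 and tbrg1, and 152 had an unadjusted p under 0.05. The gene hps3, of a complex that forms lysosome-related organelles (chromosome 5, 122204827 to 122227797), was listed at 0 in all 5 mixture livers and stood at 19.7, 0, 0, 36.2 and 38.7 scaled FPKM in control livers (adjusted p = 8.9e-05). Its span overlaps that of cp, the ceruloplasmin gene, by 152 bases, and cp was between 100 and 431 in mixture livers and between 62.5 and 235 in control livers. The gene tbrg1, of a growth regulator (chromosome 2, 76938885 to 76956472), stood at 16.7, 0, 15.2, 0 and 0 in mixture livers and between 14.1 and 18.7 in control livers (adjusted p = 0.00352). Its span overlaps that of znf593 by 68 bases, and znf593 stood at 84.6, 281, 69.8, 263 and 277 in mixture livers and between 47.1 and 153 in control livers. The 3 livers with tbrg1 listed at 0 were thus the 3 with the highest znf593. The authors' deposited table gives hps3 group means of 34.7 FPKM for mixture and 45.0 for control, and tbrg1 means of 16.1 and 22.8, and marked neither as significant, so the zeros are not read as absence. Both calls ended with only the F1 libraries in the fit (adjusted p = 1 for each) and without a filter on low values. Of the genes next in order by the same test, none called, cdh10, of a cadherin, was at 0.019 or less in mixture livers and stood at 5.23, 0.00874, 1.88, 4.97 and 0.00919 in control livers (adjusted p = 0.454). The kinase gene nek11 was at 0.228 or less in mixture livers and stood at 6.09, 0.0764, 1.53, 6.33 and 0.242 in control livers. Both genes were above 1 in control 1, 3 and 4 alone, the control livers in which cholesterol synthesis genes were high. In mixture 13, where the cholesterol list was also high (1.04), cdh10 was at 0 and nek11 at 0.108. The other genes with a smaller spread in mixture livers were ccdc59, rnf126, vgll4, ndufb7 and hyls1, and those with a larger one were stat3.2, swi5, aip, c2cd2l, palm, msra.1 and gyg1, each with an adjusted p of 1.

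Values near 0 in some livers and well above 0 in others were found in a small set of genes. Counted after the values were seen, 48 of 10201 genes had at least 1 library under 0.5 scaled FPKM, at least 1 at 5 or more and none between 0.5 and 4. Of these 48, 24 (50.0%) had a span that overlaps another gene's, beside 990 of all 10201 genes (9.70%). More mixture than control livers were low for 25 of the 48 genes, and more control livers for 17. Of the 163 genes without overlap between the groups 16 (9.82%) had such a span. Examples with no overlapping span were msmo1, swi5 and psmb8. The chromosome of psmb8 is unknown, so its span was compared only with spans on the same unplaced sequence. The proteasome gene psmb8, of the immune subunit that shapes peptides for antigen presentation, was at 0.0218 and 0 in mixture 9 and 13, between 6.12 and 26.8 in the other mixture livers and between 7.40 and 22.6 in control livers.

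**Figure D5:**
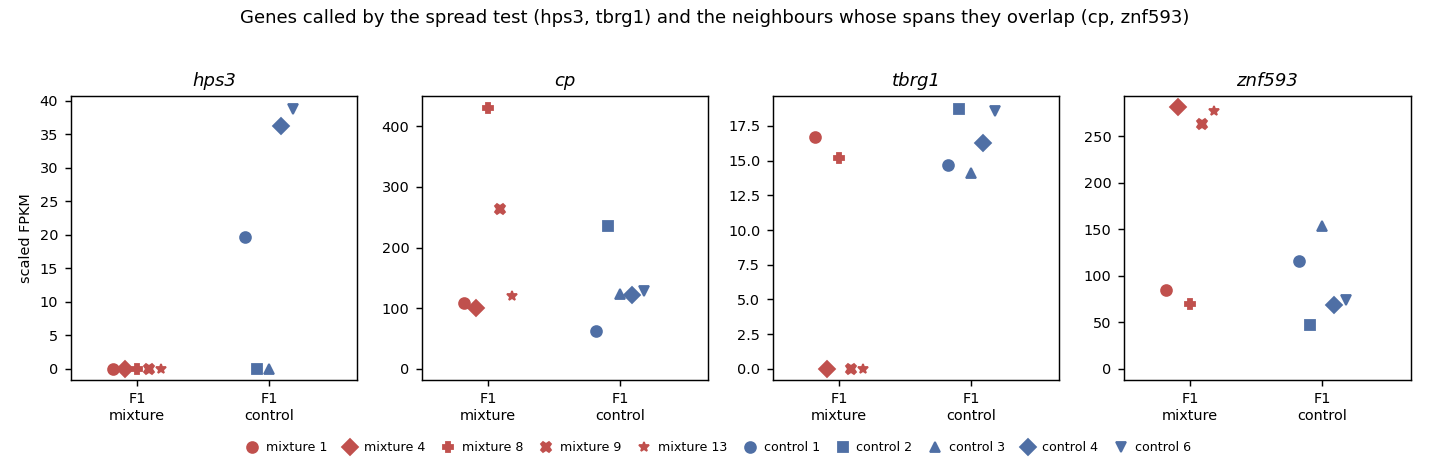
Scaled FPKM by liver of hps3 and tbrg1, called by the test of spread, and of cp and znf593, whose spans they overlap, with F1 mixture livers left and F1 control livers right. The mixture livers 4, 9 and 13, at 0 for tbrg1, lie at 281, 263 and 277 for znf593.

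The authors' deposited table (Cuffdiff) marked 268 of 11021 genes as significant (2.43%), 118 higher and 150 lower in the mixture group. Of the 230 that were also tested here, 165 had an unadjusted limma p under 0.05. Of the 229 with a value in all 10 libraries 30 (13.1%, beside 1.60% of all genes) were without overlap between the groups, 9 higher and 21 lower, and 199 overlapped in at least 1 liver. The authors' deposited table marked fnip1, fnip2, khk, slc51b, akr1d1, g6pc.1, asl, igfals, ttr and ephx2, in each of which 1 or more livers crossed. Not marked in the authors' deposited table were mia3, polh, tp53bp1, ctc1, txn2, naglu and shbg, which did not overlap, and 133 of the 163 genes without overlap in all.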

How the data were processed

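Liver mRNA libraries of 20 females were deposited, 5 in each of 4 groups. The authors' tables hold an FPKM per gene and library, with a status and confidence limits, per the file headers. The submitters' processing notes name Trimmomatic 0.32.1, HISAT2, Cufflinks 0.0.7 and Cuffdiff 0.0.7. The authors' Cuffdiff table of the F1 groups gives, per the file headers, group means in FPKM with their log2 fold change. It also holds the authors' p-value and q-value for each gene, and was used only where it is named. No label or header names a genome build. The start and end of 20164 of 20372 named genes (99.0%) equal those of the assembly UCB_Xtro_10.0, and coordinates are those of the deposited tables, counted from 1. Sequences were not used here. A further 70 lines without a gene name were left out. The files of mixture 9 and 13 carry each other's number in their names, and each was assigned by the sample it belongs to in the deposit, not by its name.

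Values not marked OK were set to missing. FPKM values were divided by the median ratio to the geometric mean over 6971 genes at 1 or more in every library, and log2 was taken after adding 1, so fold changes of low genes are understated. A mean FPKM of at least 1 and at least 3 sound values in every group left 10228 genes, which were tested with limma 3.58.1 in R 4.3.3, all 20 libraries in one fit of 4 group means, two-sided, with Benjamini-Hochberg adjustment at 0.05. The test of spread applied the same fit to absolute deviations from the group median. Both were run on simulated normal values without listed zeros or outlying libraries, so the simulation cannot vouch for results that rest on these. Library measures were compared by exact permutation in scipy. Fragments were computed from the deposited limits taken as 2 Poisson SD on each side, and cover counting error only. Fold changes are ± SE and errors of levels are SD over 5 livers.

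Named genes were the 15 of smallest p in each direction among genes with their own symbol whose groups did not overlap, and up to 4 of smallest p in each list described. They were also the 8 of smallest p for spread in each direction, genes of large SD at a mean of 10 or more, and 15 genes named in any case, of which vtgb1 was not analysed here. Genes listed at 0 in a whole group and above 0 in the other had values under 0.04 and are not described. Exceptions are marked in the text, and 1 gene that the rule names is not reported here. The groups, the gene lists and the tests were chosen with earlier results of these data known. The alternatives were other scalings, pseudocounts and filters, library weights, a block for the library number, F1 libraries alone, and leaving out each library.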

Additional observations from a re-analysis of the deposited data

Results flagged for a closer look

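In 16 of the 178 groups of 5 livers, the highest or lowest liver lay apart from the other 4 by over Dixon's 95% limit. The groups examined were genes with a printed fold change, gene lists and library measures. For a single group chance gives about 1 in 20. The groups share the same 10 livers, and many of the genes were chosen by their values. This rate therefore does not test the count of 16. Of the flagged livers 8 were control 3. It was highest of the control livers for emilin1 (4.28 scaled FPKM), ttr (92.5) and ephx2 (33.4), and lowest for pigx (18.7), ntan1 (5.84), fnip1 (3.36), khk (21.1) and the list of splicing factors (mean log2 level -0.14). Mixture 13 was highest for ctc1 (13.1) and had the fewest genes at an FPKM of 1 or more (9321). Mixture 8 was lowest for g6pc.1 (3.26) and mixture 9 for nags (4.76). Control 2 was highest for map3k10 (5.19). Control 1 was lowest for the lists of glucose release (-0.58) and of the urea cycle and amino acid breakdown (-0.57), and control 6 for extracellular matrix and adhesion (-0.10).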

How the results depend on the processing

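The count of called genes was 3 without scaling, 16 when scaled to summed FPKM, 4 without a filter, 1279 with library weights, and from 0 to 24 when 1 library was left out (0 without mixture 4). Genes without overlap numbered 265 without a filter and 77 at a mean FPKM of 5 or more. They numbered from 195 to 596 when 1 library was left out, a setting in which the number cannot fall. The spread test called 0 genes without a filter, 0 with the F1 libraries alone and from 2 to 4 without 1 library. Scaling to summed FPKM gave median distances of 0.646 within the mixture group, 0.534 within the control group and 0.546 between them, and turned cyp1a1 (-0.37), ahr (-0.15) and nfe2l2 (-0.11). The log2 fold change of igf1 was 0.03 after quantile normalization, 0.05 with library weights and from -0.16 to 0.10 without 1 library. No other printed fold change turned under any alternative. With the library number as a block limma called 2 genes and the spread test 0. Only numbers 1 and 4 are shared by the groups, with correlations of deviations of -0.02 and -0.19, so the numbers are not read as pairs. The causes of these shifts were not tested. The fragments per library limit low genes, and control livers had fewer.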
